A study of Rattus norvegicus with 20 samples.

Results

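CAF was compared with STD in WKY rats over 10 of the 20 arrays of the series, 5 rats on each diet and 1 array per rat. The arrays were taken by their sample titles, which give the strain, the diet and the number of the rat. The rats were male WKY/NCrl animals of an inbred strain, 15 weeks old, and were fed STD, a standard chow, or CAF, a cafeteria diet of palatable, energy-dense human foods, for 7 weeks. Both groups had fasted for 9 h when blood was taken, so that strain, sex, age, duration and fast were the same and the diet was the labelled difference. The other 10 arrays are of LEW/Crl rats on the same 2 diets. They are used to test whether the diet effect differed between the strains. They also enter the estimate of the spread that all groups share, and so the SE and P of each WKY difference. CAF is eaten by choice, and what each rat ate was not used here. The methods describe monocytes that adhered to plastic, whereas the labels name the cells PBMC, the mononuclear cells of blood.

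Monocytes are circulating phagocytes that sense microbes, lipids and damaged cells through surface receptors and digest what they take up in lysosomes. Interferons, which lymphocytes and monocytes release, act on monocytes through STAT and IRF factors and switch on a shared set of antiviral genes, the interferon-stimulated genes. Dietary excess is known to alter the number and activation of blood monocytes, and the comparison asks which transcripts of these cells differed between the diets in WKY rats.

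Of the 28826 transcripts, none passed an adjusted p under 0.05 in limma (0% called), with a smallest adjusted p of 0.187, shared by 19 transcripts. At an unadjusted P under 0.05 there were 2539 transcripts, 1157 higher and 1382 lower on CAF. At an unadjusted P under 0.01, which is used below to name genes, 392 transcripts (1.36%) were higher and 370 (1.28%) lower, and among the 14497 named genes, each taken by 1 transcript, 258 (1.78%) were higher and 215 (1.48%) lower. A fold change over 1.5 was reached together with that P by 7 higher (0.0243%) and 15 lower transcripts (0.052%). The 5 CAF rats all lay above the 5 STD rats in 320 transcripts (1.11%) and all below them in 277 (0.961%). The median log2 fold change over all named genes was -0.00482, and 47.7% of them were higher on CAF. Since no transcript passed the adjusted threshold, each difference below is given with its unadjusted P, as a difference between these 10 rats. The plot of all transcripts shows the interferon-stimulated genes and the monocyte markers on the lower side and the B cell markers on the higher side.

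**Figure D1:**
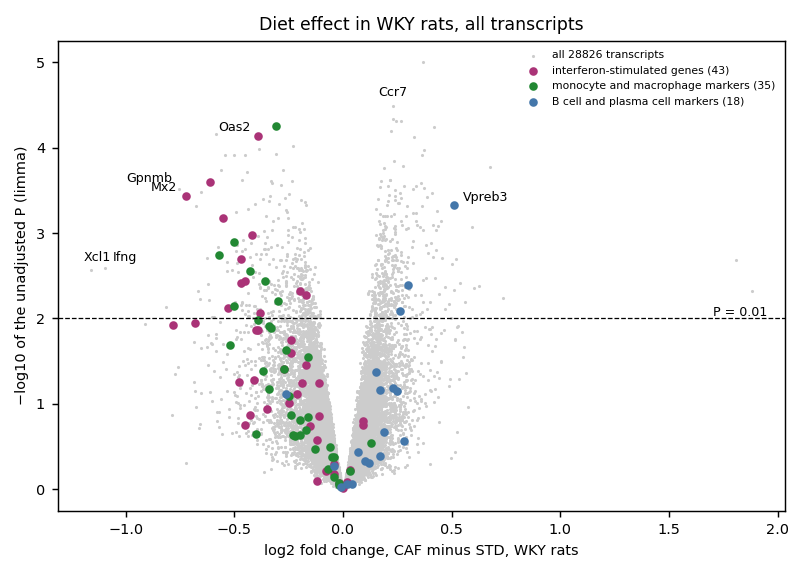
Each point is 1 of the 28826 transcripts, with the log2 fold change of CAF minus STD in WKY rats on the x axis and -log10 of the unadjusted limma P on the y axis. Coloured points are the measured members of 3 gene lists, of which 12 of 43 interferon-stimulated genes, 7 of 35 monocyte markers and 3 of 18 B cell markers lie above the dashed line, which marks the unadjusted limma threshold.

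The 19 transcripts at the smallest adjusted p hold 14 with a gene name. The higher ones were the lymphocyte homing receptor Ccr7 (log2 fold change 0.23), the nuclear receptor coactivator Ncoa3 (0.23), the chromatin remodelling ATPase Smarca4 (0.27), Mif4gd (0.24), the sulfotransferase Chst10 (0.42), the kinase Hipk1 (0.22), Fam234a (0.33), the ATP-gated channel P2rx7 (0.37) and the protein kinase inhibitor Pkib (0.36). The lower ones were the lysosomal protease Ctss (-0.31), the antiviral enzyme Oas2 (-0.39), the Schlafen gene Slfn2 (-0.38), the G protein regulator Rgs1 (-0.45) and the phagosomal metal transporter Slc11a1 (-0.50). Smarca4, Mif4gd, Fam234a, Slfn2, Rgs1, Pkib and Slc11a1 lay outside the rule for named genes and were named after their values were seen. For Slc11a1, a gene of phagocytes, the STD rats measured 11.03, 11.05, 10.81, 10.67 and 10.89 and the CAF rats 10.59, 10.61, 10.05, 10.28 and 10.42 on the log2 scale, without overlap.

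The markers of the sampled cells were checked first. Transcripts of monocytes were high in all 10 rats, at 13.09 to 13.39 for the lysozyme Lyz2 and at 12.45 to 12.84 for the endotoxin receptor Cd14, with log2 fold changes of -0.05 (unadjusted P = 0.417) and -0.07 (unadjusted P = 0.584). Transcripts of other blood cells were high as well, with Cd3e of T cells at 12.04 to 12.37, Cd79b of B cells at 11.90 to 12.42, Pf4 of platelets at 12.63 to 13.11 and the haemoglobin gene Hbb at 12.60 to 13.57, so that the RNA was that of a mixture of blood cells. In such a mixture fewer cells of a type and less RNA per cell cannot be told apart. The mean level of the 35 monocyte markers was 10.28 to 10.59 in the STD rats and 9.90 to 10.36 in the CAF rats, with CAF rat 3 lowest and the other 4 CAF rats at 10.20 or above. The 25 neutrophil markers spanned 8.62 to 9.56 on STD and 8.55 to 9.21 on CAF, and the lowest rat of each group was STD rat 1 and CAF rat 3. STD rat 1 also stood apart in heat shock transcripts, at 11.20 for the chaperone Hsph1, against 8.99 to 9.39 in the other 9 rats, and at 7.60 for Hspb1, against 5.44 to 5.86.

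**Figure D2:**
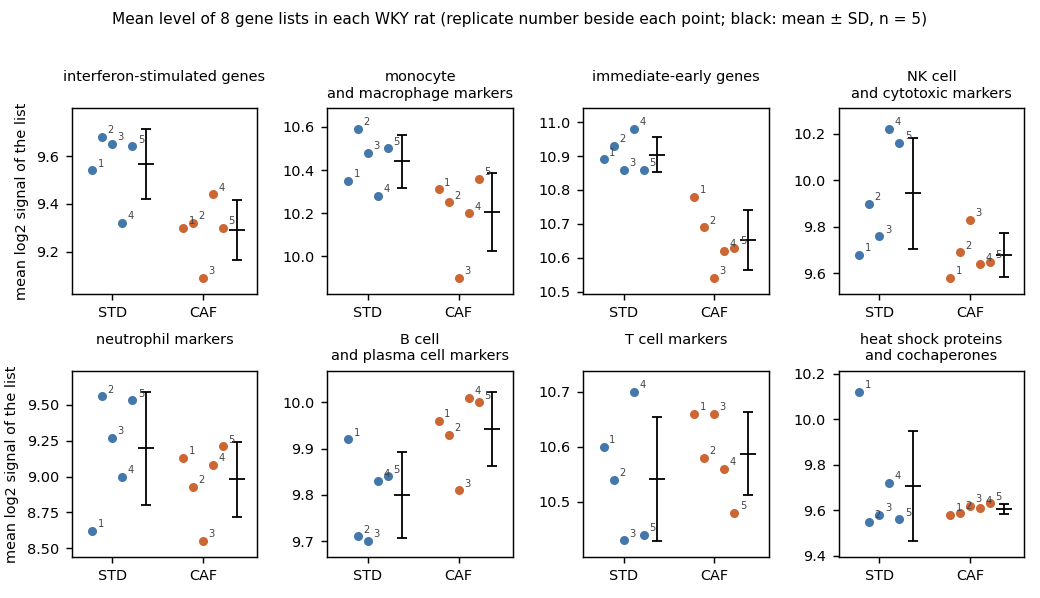
The y axis of each panel is the mean log2 signal over the members of 1 gene list and each point is 1 WKY rat, with its replicate number beside it and the group mean ± SD (n = 5) in black. The 5 CAF rats lay below all STD rats in the immediate-early genes, CAF rat 3 was lowest in the monocyte and interferon-stimulated panels, and STD rat 1 stood apart in the heat shock panel.

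Arrays correlated at 0.992 to 0.997 with each other across transcripts, and their medians were 6.85 to 6.90. The first principal component of the 10 arrays held 23.7% of the variance and ran from CAF rat 3 (loading -0.53) to STD rat 2 (0.59). The second held 15.6% and set STD rat 4 (0.80) apart.

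Interferon-stimulated genes were lower on CAF. Of the 43 measured members of the list, 12 were lower and 0 higher at an unadjusted P under 0.01, where 1.48% of all named genes were lower, and 38 were lower in sign. The median log2 fold change of the list was -0.24, against -0.00482 over all named genes, and its members ran from -0.78 to 0.09. The 12 hold effectors that attack or sense viral RNA and a regulator of the interferon genes themselves. The 2′-5′ oligoadenylate synthetases, which activate the RNA-degrading RNase L, were represented by Oas2 (-0.39), Oas1a (-0.47) and Oas3 (-0.47), and their relative Oasl2 by -0.42. The antiviral GTPases Mx2 and Mx1 gave -0.72 and -0.45. The RNA-binding protein Ifit2 gave -0.55, the interferon-induced chaperone Rtp4 -0.61, the RNA-activated kinase Eif2ak2 -0.20, the nuclear body protein Sp110 -0.17, the Schlafen gene Slfn4 -0.38 and the transcription factor Irf7 -0.53. Oas1a, Oas3, Oasl2, Mx1, Eif2ak2, Sp110 and Slfn4 are not among the genes that the rule names and were added after their values were seen, as the remaining members of the list at that P.

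Promoters of the interferon-stimulated genes are shown because most members of the list differed in the same direction and many share a factor binding sequence. The RefSeq table of the GRCr8 build held a promoter, from 250 bases before to 50 bases after the start of the gene, for 31 of the 43 measured members and for 8 of the 12. The letters GAAANNGAAA, the core that IRF and STAT complexes bind in interferon response elements, were searched on both strands. They stood in 20 of the 31 promoters (64.5%) and in 6 of the 8 (75%), against 3.74% of all 24206 promoters in the table. Of the 23 promoters of list members that did not reach that P, 14 (60.9%) held them. The following 4 belong to the members with the largest differences among these 6, and are written 5′ to 3′ along the gene with the matched letters in capitals.
Oas1a: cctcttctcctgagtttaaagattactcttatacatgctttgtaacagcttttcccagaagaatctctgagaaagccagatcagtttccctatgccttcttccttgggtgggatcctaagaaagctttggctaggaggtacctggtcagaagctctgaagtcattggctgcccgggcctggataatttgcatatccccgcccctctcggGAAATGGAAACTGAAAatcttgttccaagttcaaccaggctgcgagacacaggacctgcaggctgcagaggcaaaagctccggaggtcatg
Oas3: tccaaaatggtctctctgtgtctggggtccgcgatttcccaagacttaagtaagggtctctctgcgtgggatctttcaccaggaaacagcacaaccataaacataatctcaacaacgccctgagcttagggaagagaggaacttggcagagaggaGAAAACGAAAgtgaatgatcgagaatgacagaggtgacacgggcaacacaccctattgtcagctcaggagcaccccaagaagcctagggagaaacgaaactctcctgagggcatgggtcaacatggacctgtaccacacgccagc
Oasl2: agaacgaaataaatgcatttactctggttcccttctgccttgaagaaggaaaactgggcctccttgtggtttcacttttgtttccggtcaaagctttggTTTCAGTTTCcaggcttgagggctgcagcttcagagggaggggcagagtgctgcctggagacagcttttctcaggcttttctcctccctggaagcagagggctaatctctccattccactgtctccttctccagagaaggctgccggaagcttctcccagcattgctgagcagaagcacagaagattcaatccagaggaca
Irf7: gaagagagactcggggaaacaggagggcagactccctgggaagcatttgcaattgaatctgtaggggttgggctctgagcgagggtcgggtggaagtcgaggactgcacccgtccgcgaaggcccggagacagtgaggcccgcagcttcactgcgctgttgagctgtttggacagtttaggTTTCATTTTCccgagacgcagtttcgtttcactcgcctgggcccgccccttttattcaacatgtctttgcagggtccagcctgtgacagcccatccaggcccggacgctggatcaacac
These windows are chr12:41330216-41330515 on the plus strand for Oas1a, chr12:41439482-41439781 on the plus strand for Oas3, chr12:47383136-47383435 on the minus strand for Oasl2 and chr1:205799974-205800273 on the minus strand for Irf7. Counted from the start site, Oas1a holds 2 overlapping matches that begin at -41 and -35, and the others hold 1 each, at -95 in Oas3, -151 in Oasl2 and -69 in Irf7. Mx1 and Slfn4 had a promoter in the table without these letters, and Mx2, Rtp4, Oas2 and Ifit2 were not matched in it. The match is a description of the sequence and shows no binding.

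Mx2 measured 8.77, 8.39, 9.07, 7.92 and 8.49 in the STD rats and 7.61, 7.93, 7.50, 8.24 and 7.76 in the CAF rats, in the order of the rats. STD rat 4 was the lowest STD rat and CAF rat 4 the highest CAF rat, so that the groups overlapped by these 2 rats. The difference was -0.72 ± 0.17 (SE, n = 5 per group, 1.64-fold, unadjusted P = 0.000371, adjusted p = 0.196). Rtp4 measured 7.66, 8.11, 7.78, 7.64 and 8.21 on STD and 7.45, 7.22, 6.73, 7.37 and 7.58 on CAF, without overlap and with CAF rat 3 far below the others. Its difference was -0.61 ± 0.14 (SE, unadjusted P = 0.000255, adjusted p = 0.196). Oas2 measured 6.99, 7.37, 7.37, 7.02 and 7.28 on STD and 6.88, 6.88, 6.76, 6.91 and 6.66 on CAF. Its groups did not overlap either, with STD rats 1 and 4 close to the CAF rats, and the difference was -0.39 ± 0.08 (SE, unadjusted P = 7.31e-05, adjusted p = 0.187). Ifit2 measured 9.55, 9.40, 9.52, 9.02 and 9.50 on STD and 8.79, 9.01, 8.55, 9.05 and 8.83 on CAF. Only STD rat 4 reached into the CAF range, and the difference was -0.55 ± 0.14 (SE, unadjusted P = 0.000665). Near-identical family members such as Mx1 and Mx2, or the Oas genes, may share probes in part.

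The mean level of the 43 genes was 9.32 to 9.68 in the STD rats and 9.09 to 9.44 in the CAF rats, and STD rat 4 lay within the CAF range. Monocyte markers moved with these genes, and with their mean as a covariate the median of the interferon-stimulated genes was -0.14, with 2 members lower at an unadjusted P under 0.01. Without CAF rat 3 the median was -0.20 with 7 such members, and without STD rat 2 and CAF rat 3, the 2 ends of the first component, it was -0.17 with 6, a choice made after seeing the data. Without STD rat 4 the count was 15. The part of the cell mixture in these differences was not tested.

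Monocyte and macrophage markers were lower on CAF by a similar amount. Of 35 measured, 7 were lower and 0 higher at an unadjusted P under 0.01, where 1.48% of all named genes were lower. In sign 33 were lower, and the median was -0.24. The 7 were the cathepsin Ctss (-0.31), which prepares MHC class II molecules for loading, the integrin chain Itgam (-0.50), the aminopeptidase Anpep (-0.57), the pore-forming protein Mpeg1 (-0.43), the lysosomal glycoprotein Cd68 (-0.36), the orphan nuclear receptor Nr4a1 (-0.30) and the high-affinity IgG receptor Fcgr1a (-0.50). Cd68 was named after its value was seen. Other markers of the list differed less. The receptor for colony-stimulating factor, Csf1r, gave -0.20 (unadjusted P = 0.153), and Lyz2 and Cd14 are given above. GAGGAAGT, a form of the sequence bound by the myeloid factor PU.1, stood in 4 of the 24 marker promoters in the table (16.7%) and in 2.45% of all promoters. GAAANNGAAA also stood in 4 of these 24 (16.7%). GAGGAAGT stood in 2 of the 31 promoters of interferon-stimulated genes (6.45%).

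Itgam, which encodes CD11b and serves adhesion and uptake of opsonised particles, measured 10.69, 11.17, 10.89, 10.86 and 11.32 on STD and 10.66, 10.44, 10.23, 10.39 and 10.71 on CAF. STD rat 1 was lowest of its group and lay between CAF rats 1 and 5, and the other 4 STD rats were above all CAF rats. The difference was -0.50 ± 0.13 (SE, 95% interval -0.78 to -0.22, unadjusted P = 0.00127). Ctss measured 11.36, 11.38, 11.46, 11.13 and 11.33 on STD and 10.98, 11.14, 10.94, 11.01 and 11.06 on CAF, where STD rat 4 and CAF rat 2 were almost equal and the other STD rats lay above all CAF rats. The difference was -0.31 ± 0.06 (SE, unadjusted P = 5.58e-05, adjusted p = 0.187).

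Receptors through which myeloid cells are activated or restrained lay on the same side. Of 24 measured, 4 were lower and 0 higher at an unadjusted P under 0.01, where 1.48% of all named genes were lower. In sign 22 were lower, with a median of -0.23. The inhibitory receptors Cd300lf, Lilrb4 and Clec12a gave -0.68, -0.26 and -0.45, and the activating receptor Trem1, which amplifies inflammatory signals, gave -0.28. Among the Fc receptors, the inhibitory IgG receptor Fcgr2b gave -0.51 (unadjusted P = 0.00272), while Fcmr, which binds IgM on lymphocytes, was higher by 0.24 (unadjusted P = 0.00469). In endotoxin sensing, Ly96, the partner of TLR4, gave -0.38 and the adaptor Myd88 -0.15. Cd300lf measured 6.40, 7.70, 6.95, 6.76 and 7.33 on STD and 6.36, 6.29, 6.16, 6.46 and 6.50 on CAF. The CAF rats lay within a narrow range at the level of STD rat 1, and the other 4 STD rats were all higher.

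Lysosomal genes held some of the larger differences without a shift of the whole list. Of 34 measured, 5 were lower and 1 higher at an unadjusted P under 0.01, and the median was -0.02. Among all named genes 1.48% were lower and 1.78% higher at that P. Gpnmb, a lysosomal glycoprotein of lipid-laden macrophages, measured 10.51, 11.04, 10.82, 10.93 and 11.37 on STD and 10.41, 9.95, 9.81, 10.28 and 10.46 on CAF. All CAF rats lay below all STD rats, and the difference was -0.75 ± 0.17 (SE, 1.69-fold, unadjusted P = 0.000309, adjusted p = 0.196). The proton pump subunit Atp6v1b2 gave -0.28, Ctss -0.31, Cd68 -0.36 and the protease Ctsb -0.19, which was added after its value was seen. The autophagy kinase Ulk1 was higher by 0.18. Rab7b, a small GTPase of late endosomes outside the list, gave -0.60 (unadjusted P = 0.00976) without overlap of the groups.

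With the mean of the monocyte markers as a covariate, the median of the receptors was -0.05 with 0 members at an unadjusted P under 0.01, and 2 lysosomal genes were lower at that P. Ctss and Cd68 of the lysosomal list are also among the markers averaged in the covariate. The monocyte list itself had a median of 0.01 under this covariate, by construction. Without CAF rat 3, 3 members of the monocyte list were lower at that P, without STD rat 2 there were 4, and without both there was 1. Without STD rat 1 or CAF rat 5 there were 10. The difference of Gpnmb was -0.61 with the covariate and -0.66 without CAF rat 3.

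**Figure D3:**
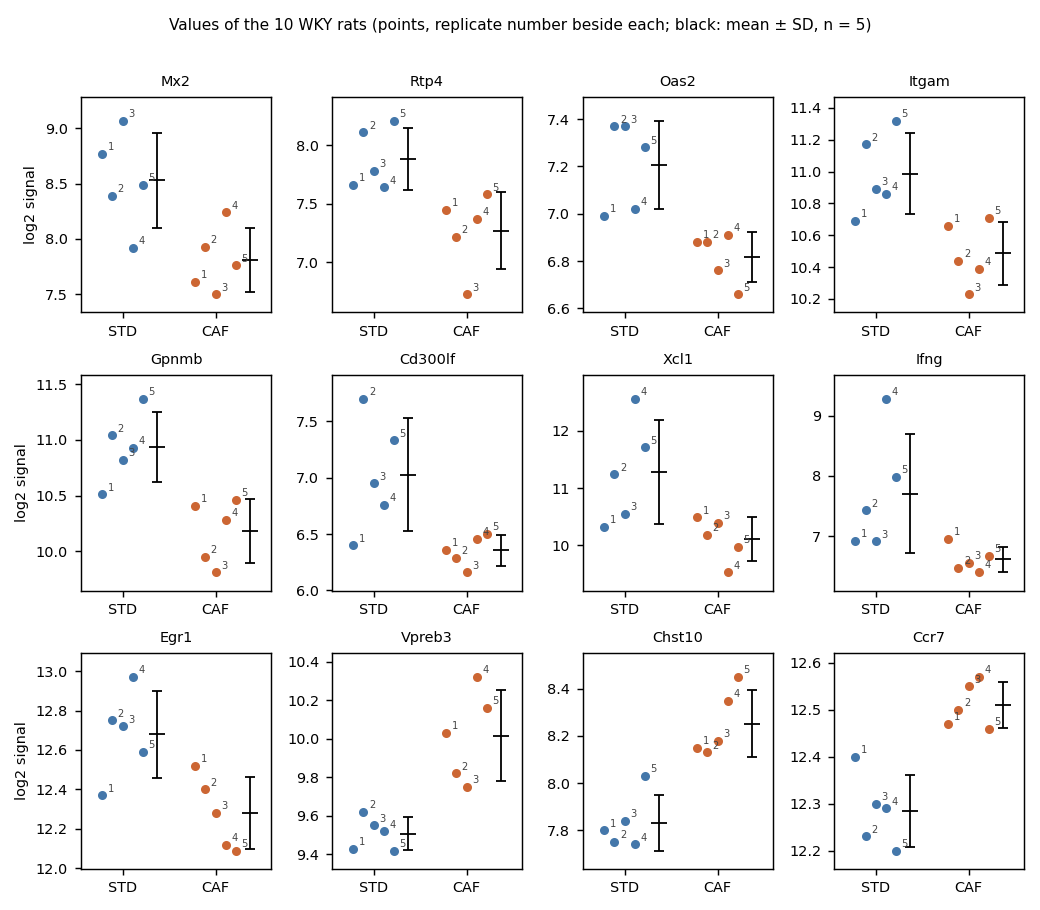
The y axis of each panel is the log2 signal of 1 transcript and each point is 1 WKY rat, with its replicate number beside it and the group mean ± SD (n = 5) in black. The groups did not overlap in Rtp4, Oas2, Gpnmb, Vpreb3, Chst10 and Ccr7, and STD rats 4 and 5 were the highest in Xcl1 and Ifng.

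The 2 largest differences on the lower side at an unadjusted P under 0.01 were those of Xcl1 and Ifng, which are secreted by NK cells and activated T cells. Xcl1, a chemokine that attracts dendritic cells, measured 10.32, 11.24, 10.55, 12.56 and 11.71 on STD and 10.49, 10.19, 10.39, 9.53 and 9.98 on CAF. Ifng, the type II interferon and an activator of monocytes, measured 6.92, 7.43, 6.91, 9.28 and 7.98 on STD and 6.95, 6.47, 6.55, 6.41 and 6.67 on CAF. STD rats 4 and 5 were highest in both genes, and STD rats 1 and 3 lay within or next to the CAF range. The differences were -1.16 ± 0.34 (SE, 2.23-fold, unadjusted P = 0.00273, adjusted p = 0.276) for Xcl1 and -1.09 ± 0.32 (SE, 2.13-fold, unadjusted P = 0.00259, adjusted p = 0.272) for Ifng, and they were -0.84 and -0.70 without STD rat 4. Ifng stood highest in STD rat 4, which had the lowest mean level of interferon-stimulated genes on STD. These 2 were the members of the 25 NK and cytotoxic markers at an unadjusted P under 0.01, where 1.48% of all named genes were lower. In sign 23 members were lower, with a median of -0.18. The NK receptors Ncr1 and Klrb1a gave -0.40 (unadjusted P = 0.0312) and -0.32 (unadjusted P = 0.0272). The mean level of the list was 9.68 to 10.22 on STD and 9.58 to 9.83 on CAF, and STD rats 4 and 5 were again the highest. Without STD rat 1 there were 5 members lower at an unadjusted P under 0.01, and without CAF rat 4 there was 1.

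Immediate-early genes, which encode transcription factors and RNA-binding proteins made within minutes of a stimulus, were lower on CAF in 26 of 28 measured members, with a median of -0.25. At an unadjusted P under 0.01, where 1.48% of all named genes were lower, 3 were lower and 0 higher. They were the zinc finger factor Egr1 (-0.40), Zfp36 (-0.26), which speeds the decay of cytokine mRNAs, and Nr4a1 (-0.30). Egr1 measured 12.37, 12.75, 12.72, 12.97 and 12.59 on STD and 12.52, 12.40, 12.28, 12.12 and 12.09 on CAF, where STD rat 1 lay among the CAF rats and the others did not. Its relative Egr3 gave -0.58 (unadjusted P = 0.0152). The mean level of the list did not overlap between the diets, at 10.86 to 10.98 on STD and 10.54 to 10.78 on CAF. A fit of the 10 WKY arrays alone placed 9 of its members lower at that P. With the monocyte covariate, whose averaged markers include Nr4a1, the median was -0.11 with 0 members at that P. Without CAF rat 3 or CAF rat 4 there was 1 member. Among stress genes, the factor Ddit3 of the endoplasmic reticulum stress response (-0.34) and the stress kinase Plk3 (-0.49) were lower without overlap. The list of endoplasmic reticulum stress genes had 1 of 27 and the p53 target list 1 of 18 members lower at that P. With 1.48% of all named genes lower, 1 member does not set either list apart. The regulator Txnip, which restrains glucose uptake and feeds the NLRP3 inflammasome, gave -0.37 (unadjusted P = 0.00351).

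The study reports Ifng, Nos2, Tnf, the interleukins, Ptgs2 and Alox5 as higher in CAF-fed WKY than in CAF-fed LEW rats, a contrast of strains. The values here contrast the diets within WKY rats and do not test that result. Of the mediators that the study names, Ifng is described above with an unadjusted P of 0.00259, and the others did not reach an unadjusted P under 0.05. Mir223, which the study names for the diet in WKY rats, is not given here. The log2 fold change was -0.24 (unadjusted P = 0.176) for Tnf, 0.25 (0.564) for Il6, 0.08 (0.811) for Il1a, 0.12 (0.0946) for Il12a, -0.17 (0.286) for Il18, -0.09 (0.751) for Il23a, -0.27 (0.364) for Ptgs2, -0.40 (0.0736) for Alox5, -0.04 (0.579) for Stat3 and -0.06 (0.719) for Ccl2. The 95% interval of Ccl2, which encodes the monocyte attractant MCP-1, ran from -0.38 to 0.27. Nos2, the inducible nitric oxide synthase, measured 13.39 to 13.52 on STD and 13.13 to 13.35 on CAF without overlap, but its SE of 0.23 came from a fit that also held the LEW rats, whose SDs were 0.57 on STD and 0.53 on CAF, and the unadjusted P was 0.469. Acss2, an enzyme that makes acetyl-CoA from acetate, gave 0.22 ± 0.13 (SE, unadjusted P = 0.0994). Of the 17 cytokines of activated monocytes, 0 reached an unadjusted P under 0.01, and 12 were lower in sign with a median of -0.09.

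On the higher side no named transcript reached a fold change of 1.5. The 15 largest at an unadjusted P under 0.01 lay between 0.37 and 0.51, and 10 of them did not overlap between the groups, against 3 of the 15 largest on the lower side. Both sets were chosen by this contrast, and over all transcripts 1.11% lay above and 0.961% below without overlap. Vpreb3, which assists the assembly of the B cell receptor, led them. It measured 9.43, 9.62, 9.55, 9.52 and 9.42 on STD and 10.03, 9.82, 9.75, 10.32 and 10.16 on CAF, without overlap, a difference of 0.51 ± 0.12 (SE, unadjusted P = 0.000469, adjusted p = 0.196). Chst10, a sulfotransferase that builds the HNK-1 carbohydrate, measured 7.80, 7.75, 7.84, 7.74 and 8.03 on STD and 8.15, 8.13, 8.18, 8.35 and 8.45 on CAF. All 5 CAF rats were above the STD rats, and the difference was 0.42 ± 0.08 (SE, unadjusted P = 5.75e-05, adjusted p = 0.187). Acp5, the tartrate-resistant acid phosphatase of macrophages and osteoclasts, gave 0.39, from 11.02 to 11.20 on STD to 11.42 to 11.62 on CAF, opposite in sign to most monocyte markers. P2rx7, the ATP-gated channel that triggers IL-1β release, gave 0.37, from 7.07 to 7.47 on STD to 7.53 to 7.93 on CAF. The others were the kainate receptor accessory protein Neto2 (0.46), C14h7orf57 (0.44), the glutaminase Gls2 (0.43), the carboxypeptidase Cpm (0.43), Pakap (0.43), the AMPK-related kinase Nuak1 (0.41), the kinase Camk2a (0.40), the fatty acid desaturase Fads2 (0.39), the transcriptional repressor Zhx2 (0.38), the factor Grhl3 (0.37) and the caveolin Cav2 (0.37). On the lower side the remaining genes of the 15 largest were the serotonin receptor Htr1b (-0.67), the fatty acid transporter Slc27a2 (-0.65), the lipoprotein-associated phospholipase Pla2g7 (-0.62), the exonuclease Exo5 (-0.57) and the phosphatase Ppef1 (-0.53).

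Lymphocyte genes accounted for several of the higher transcripts. Of 18 B cell markers, 3 were higher and 0 lower at an unadjusted P under 0.01, where 1.78% of all named genes were higher, and 15 were higher in sign with a median of 0.16. They were Vpreb3, the B cell factor Ebf1 (0.30) and the antigen receptor chain Cd79b (0.26). The mean level of the list was 9.70 to 9.92 on STD and 9.81 to 10.01 on CAF, so that the groups overlapped. Of 24 T cell markers, Ccr7 (0.23) and the receptor chain Cd247 (0.23) were higher and 0 were lower at that P, while Cd3e gave 0.06 (unadjusted P = 0.330) and the median was 0.05. Ccr7 measured 12.40, 12.23, 12.30, 12.29 and 12.20 on STD and 12.47, 12.50, 12.55, 12.57 and 12.46 on CAF, without overlap (unadjusted P = 3.29e-05). Among 17 dendritic cell markers, Ccr7 and the factors Tcf4 (0.25) and Bcl11a (0.36) of plasmacytoid cells were higher at that P and the factor Id2 (-0.35) was lower. In sign 7 of the 17 were higher and 10 lower, with a median of -0.02. B cells use Tcf4 and Bcl11a as well. Pecam1, an adhesion molecule of leukocytes, platelets and endothelium, was higher by 0.21 without overlap. Of 17 endothelial and fibroblast markers, which include Pecam1, 4 were higher and 13 lower in sign, with a median of -0.03. Leaving out 1 rat at a time placed 1 to 3 of the B cell markers higher at that P. Markers of platelets and red cells were also mostly higher in sign, though 0 reached that P. All 12 platelet markers were higher, with a median of 0.11, as were 21 of 25 erythroid markers, with a median of 0.10. Other blood cell lists lay on the lower side. In sign 22 of 25 neutrophil markers were lower, with a median of -0.16, and 23 of 25 NK markers, with a median of -0.18. Of 18 markers of mast cells, basophils and eosinophils, 11 were lower, with a median of -0.05.

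Transcripts without a gene name held the largest differences on the higher side. The annotation gives them no single symbol, and whether each measures a rat transcript or is a control of the array was not established. The transcript 10700161 measured 8.12, 9.48, 7.79, 8.72 and 8.60 on STD and 9.99, 10.52, 9.74, 10.72 and 11.16 on CAF, a difference of 1.88 ± 0.59 (SE, 3.69-fold, unadjusted P = 0.00479, adjusted p = 0.311). The transcript 10812148 measured 7.84, 7.04, 6.83, 4.34 and 6.08 on STD and 8.17, 8.46, 7.97, 8.15 and 8.42 on CAF, a difference of 1.81 ± 0.51 (SE, 3.50-fold, unadjusted P = 0.00208, adjusted p = 0.259). In both, all CAF rats lay above all STD rats, and the STD rats spread more widely than the CAF rats in the second. Of the 22 transcripts past a fold change of 1.5 at an unadjusted P under 0.01, the 7 higher ones were all unnamed, and 10 of the 15 lower ones had a gene name.

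Genes of lipid handling differed in both directions. Of 31 genes of lipid uptake, efflux and storage, 3 were lower and 1 was higher at an unadjusted P under 0.01, with 23 lower in sign and a median of -0.18. Among all named genes 1.48% were lower and 1.78% higher at that P. Soat1, which esterifies cholesterol for storage, gave -0.25 without overlap, the exporter Abcg2 -0.19 and the lipolysis inhibitor G0s2 -0.46, while the cholesterol exporter Abcg1 was higher by 0.15. With the monocyte covariate the median of this list was -0.02 with 0 members at that P, and without CAF rat 3 there was 1 lower member and without CAF rat 5 there were 7. In the 20 genes of fatty acid synthesis and activation, 3 were higher and 1 was lower. Fads2, the rate-limiting desaturase of polyunsaturated fatty acids, measured 8.39, 8.42, 8.30, 8.51 and 8.41 on STD and 8.71, 8.76, 8.59, 9.00 and 8.93 on CAF. The groups did not overlap (difference 0.39 ± 0.11, SE, unadjusted P = 0.00171). Acly, which makes acetyl-CoA from citrate in the cytosol, gave 0.17, Fasn, which builds the acyl chain, gave 0.11, and Acsl4, which activates arachidonic acid, gave -0.33 without overlap. Scap, the escort protein of the SREBP factors, was higher by 0.24 without overlap, and it was the single member of 22 genes of cholesterol synthesis at that P. In sign 16 of the 22 were lower and 6 higher, with a median of -0.01. In 4 of them all CAF rats lay below all STD rats and in 1 above, against 0.961% and 1.11% of all transcripts. The mean level of the list was 8.84 to 8.97 on STD and 8.75 to 8.85 on CAF.

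Slc27a2, a fatty acid transporter and acyl-CoA synthetase, measured 7.99, 8.38, 8.32, 9.19 and 8.56 on STD and 7.73, 8.07, 8.05, 7.64 and 7.69 on CAF. STD rat 4 was the highest, STD rat 1 lay among the CAF rats, and the difference was -0.65 ± 0.15 (SE, unadjusted P = 0.000335). Together with Acsl4 it made up the 2 of 41 PPAR targets and receptors at an unadjusted P under 0.01, in a list with a median of -0.03. Both were lower, as were 1.48% of all named genes at that P. Of 65 Wnt pathway genes, 0 reached that P, 8 were higher and 3 lower at an unadjusted P under 0.05, and the median was 0.02. For comparison, 1157 of all 28826 transcripts were higher and 1382 lower at an unadjusted P under 0.05. The share of the list was therefore larger on the higher side and similar on the lower. The 28826 include 13617 transcripts without a single gene symbol.

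Genes of insulin and nutrient sensing had 3 higher and 1 lower of 27 measured at an unadjusted P under 0.01, with a median of 0.02. Among all named genes 1.78% were higher and 1.48% lower at that P. The insulin receptor Insr measured 9.15, 9.31, 9.13, 8.87 and 8.99 on STD and 9.35, 9.32, 9.34, 9.36 and 9.33 on CAF. The CAF rats were nearly equal and lay above the STD rats, STD rat 2 being closest, and the difference was 0.25 ± 0.07 (SE, unadjusted P = 0.00128). The second transcript of Insr gave 0.27. The factor Foxo1, which insulin signalling keeps out of the nucleus, gave 0.23 and the leukocyte kinase subunit Pik3cd 0.19, both without overlap, and the mTORC1 activator Rheb gave -0.13. In glucose metabolism the glycolytic regulator Pfkfb3 was higher by 0.24, and the glucose transporter Slc2a1 gave -0.33 without overlap. Lists of cell maintenance lay close to 0, with medians of 0.05 for 63 ribosomal proteins, of which 51 were higher in sign, 0.02 for 49 subunits of oxidative phosphorylation and 0.01 for 30 proteasome subunits. At an unadjusted P under 0.01 they held Rps12 (0.18), Rpl8 (0.15) and Psma7 (0.17).

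**Figure D4:**
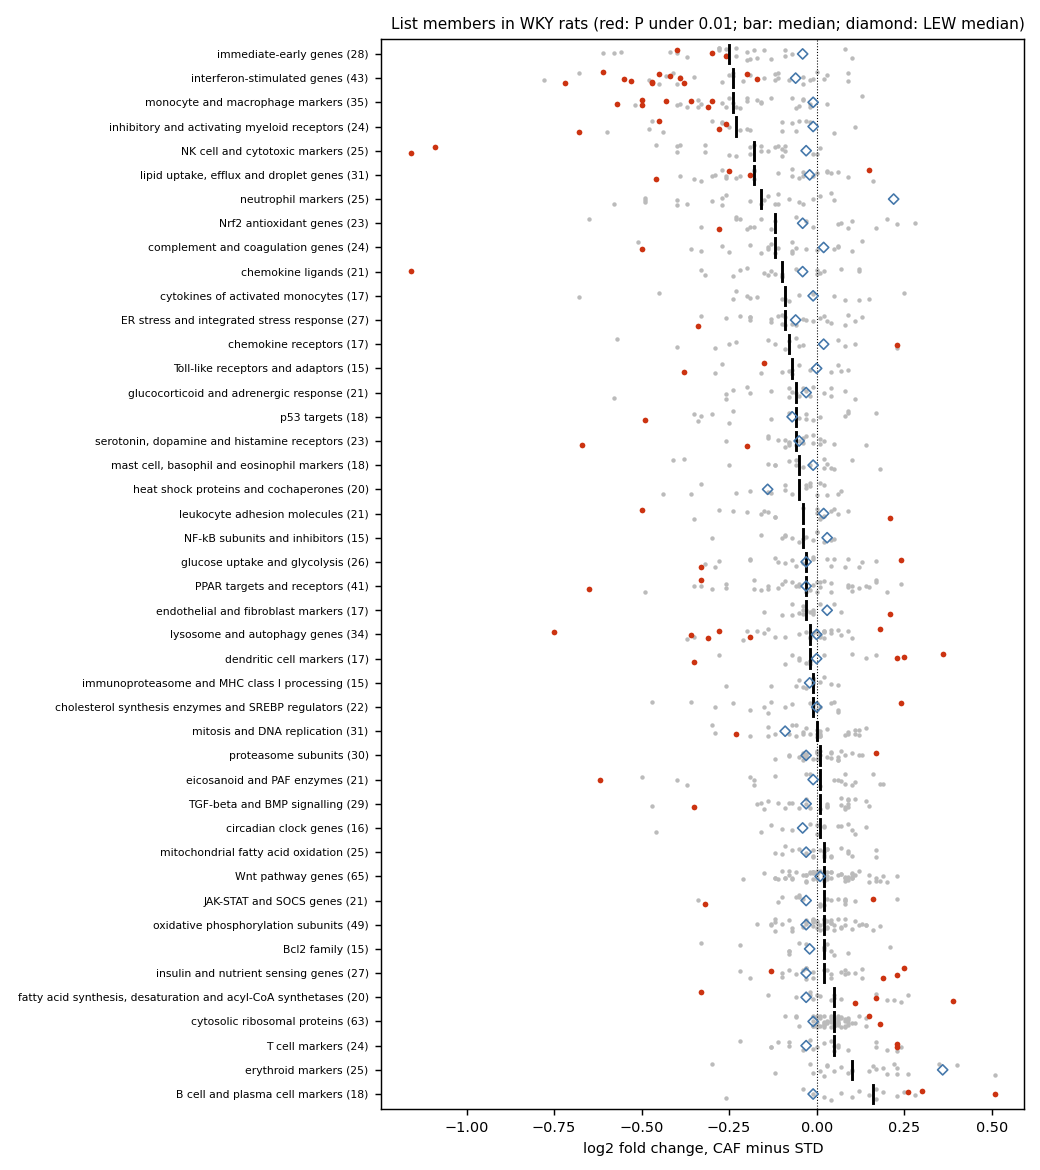
Each row is a gene list with 15 or more measured members (number in parentheses), and each point is the log2 fold change of 1 member in WKY rats, in red at an unadjusted P under 0.01. The black bar is the median in WKY rats, from -0.25 in the immediate-early genes to 0.16 in the B cell markers, and the open diamond is the median of the same genes in LEW rats.

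In LEW rats the same diet contrast gave medians nearer to 0 in most of the lists that were lower in WKY rats. The median was -0.06 for the interferon-stimulated genes, -0.01 for the monocyte markers, -0.01 for the myeloid receptors, -0.04 for the immediate-early genes and -0.03 for the NK markers. The neutrophil markers had a median of 0.22 in LEW and -0.16 in WKY rats. By limma 0 transcripts passed the adjusted threshold in LEW rats, and 307 had an unadjusted P under 0.01 and 1575 one under 0.05. The difference of the diet effects itself, tested as the interaction, passed an adjusted p under 0.05 in 0 transcripts (0%) in limma, with 1714 at an unadjusted P under 0.05 and 376 (1.3%) under 0.01. None of the diet differences can therefore be called particular to WKY rats.

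Mx2 gave -0.72 in WKY and -0.06 in LEW rats (interaction unadjusted P = 0.0121, adjusted p = 0.788), and its mean level was 8.53 on STD and 7.81 on CAF in WKY rats, against 6.16 and 6.10 in LEW rats. Itgam gave -0.50 and 0.12 (interaction unadjusted P = 0.00382, adjusted p = 0.707). Xcl1 gave -1.16 and -0.01 (interaction unadjusted P = 0.0265) and stood at 11.28 and 10.12 in WKY but at 7.99 and 7.98 in LEW rats. The 5 named genes of the smallest interaction P were Krtap5-8 (-0.57), Ncoa3 (0.32), Grhl3 (0.59), Hipk1 (0.29) and Abhd8 (0.27), with adjusted p of 0.515 to 0.707. For Ncoa3, a coactivator of nuclear receptors, the CAF rats measured 11.22 to 11.28 and the STD rats 10.96 to 11.10, a diet effect of 0.23 in WKY and -0.08 in LEW rats. The epithelial factor Grhl3 gave 0.37 and -0.22. Krtap5-8 belongs to a family of near-identical keratin-associated genes, and its 4 other transcripts had an interaction P of 0.259 or higher.

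**Figure D5:**
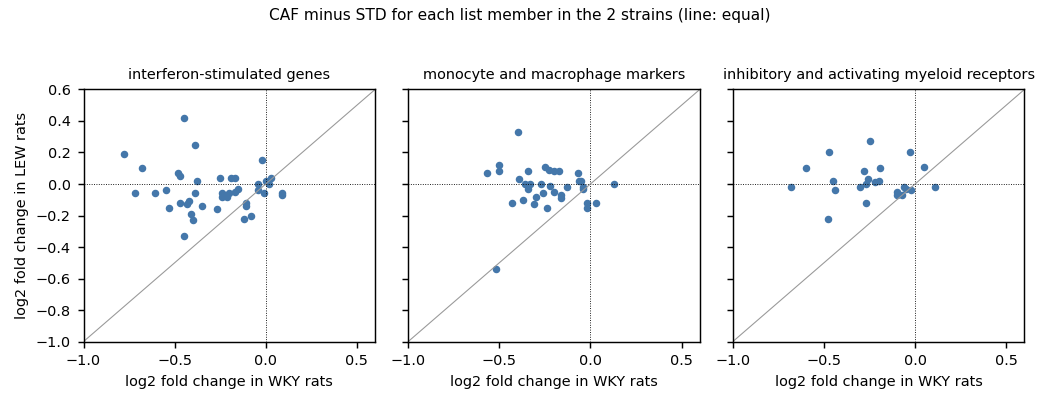
Each point is 1 list member, with its log2 fold change of CAF minus STD in WKY rats on the x axis and in LEW rats on the y axis, and the line marks equal effects. Most points lie left of 0 in WKY rats and near 0 in LEW rats, with medians of -0.24 and -0.06 for the interferon-stimulated genes, -0.24 and -0.01 for the monocyte markers and -0.23 and -0.01 for the myeloid receptors.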

How the data were processed

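RNA of blood cells from 20 rats was hybridised to rat gene arrays, 1 array per rat. The values used are the log2 signals per transcript that the authors deposited. Per the methods, the authors normalised the arrays with RMA, while the submitters' processing notes name MAS5. The values were used as deposited, and no count or depth lies behind them, so that the number of rats limits the precision.

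A linear model (limma 3.58.1, R 4.3.3) gave each strain and diet its own mean over all 20 arrays, with 16 residual and 3.67 prior degrees of freedom, and CAF was contrasted with STD in WKY rats. P-values were adjusted by Benjamini-Hochberg over 28826 transcripts. The diet by strain interaction was a contrast of the same fit. The code was tested on simulated data. The labels call the rats biological replicates.

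GEO's platform annotation named 15209 transcripts by 1 symbol (14497 genes), 306 by several and 13311 by none. In gene lists each gene was taken by its transcript of the highest mean signal, and 49 lists were described by counts and medians. Members and lists were chosen with earlier results of these data known.

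Named were the 15 largest differences in each direction, filled at an unadjusted P under 0.01 since none passed the adjusted threshold of 0.05, up to 4 members per list, the 5 smallest interaction P, markers and the genes of the study's text. The labels name no pairing by replicate number, and the rats were treated as unpaired. Same-numbered rats of the 2 diets had correlations of -0.18 to 0.2 in their deviations from the group means. These values cannot exclude a batch shared by replicate number. Alternatives were other samples in the fit, a block, a signal filter, other scalings, variance settings and weights, marker covariates and leaving out each rat.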

Additional observations from a re-analysis of the deposited data

Results flagged for a closer look

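In 20 of 334 groups of 5 rats looked at (named genes and list means), 1 rat stood apart, its gap to the nearest rat being more than 0.71 of the range of the group. Chance marks about 1 in 20 groups.

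STD rat 4 stood apart below the other STD rats in Ifit2 (9.02), Oas1a (8.04), Acp5 (11.02) and the mean of the immunoproteasome and MHC class I genes (10.78), and above them in Plk3 (10.69). STD rat 1 stood apart above the other STD rats in the heat shock genes Hspb1 (7.60) and Hsph1 (11.20). The same rat stood apart from the others in the B cell factor Ebf1 (10.74) and in the mean of mitochondrial fatty acid oxidation (8.49). STD rat 2 stood apart in Cd68 (11.59) and Pf4 (12.63), and STD rat 3 in the means of the PPAR targets (8.43) and of the platelet markers (11.29).

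CAF rat 3 stood apart in 6 groups. They were Mpeg1 (9.03), Ctsb (12.83), Ptgs2 (10.17) and the means of the monocyte cytokines (9.68), of cholesterol synthesis (8.75) and of the Nrf2 genes (9.99), in each of which it was the lowest CAF rat. CAF rat 1 stood apart in the mean of the JAK-STAT and SOCS genes (10.77).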

How the results depend on the processing

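In the 23 other settings no transcript passed an adjusted p under 0.05 in limma, except 1, without a gene name, when CAF rat 4 was left out. The counts at an unadjusted P under 0.01 moved by over 1.5 times as follows, and the cause was not tested. Among transcripts whose mean signal was above the median, where fewer were tested, 200 were lower, 14 passed the fold change of 1.5 as well, and 227 passed in the interaction. With array weights these counts were 559, 39 and 596. With the monocyte covariate 189 were higher and 34 passed the fold change. The neutrophil and B cell covariates, chosen after seeing the data like the fit without both ends of the first component, gave 12 and 44. Leaving out 1 rat at a time gave 269 to 495 higher, 261 to 534 lower, 0 to 1 adjusted, 18 to 68 past the fold change and 295 to 583 in the interaction, the last 2 highest without STD rat 1 (68 and 583). With a replicate block there were 316 higher, 360 lower, 27 past the fold change and 0 adjusted.

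Of the named genes, 12 changed sign in at least 1 setting, each with an unadjusted P of 0.0736 or higher in the fit reported. With the monocyte covariate Alox5 gave 0.09, Cd14 0.04, Cd3e -0.07, Csf1r 0.13, Il23a 0.39, Lyz2 0.09 and Ptgs2 0.14. Hspb1 gave 0.05 with the heat shock covariate, and Il23a 0.22 with the neutrophil covariate. With the B cell covariate Ccl2 gave 0.12, Il1a -0.04 and Il6 -0.33. Without both ends of the first component Ccl2 gave 0.01, Cd3e -0.00, Il23a 0.27 and Lyz2 0.02. Leaving out 1 rat at a time gave -0.51 to 0.03 for Hspb1, -0.46 to 0.08 for Hsph1 and -0.36 to 0.09 for Il23a, positive without STD rat 1 for the first 2 and without STD rat 2 or CAF rat 3 for the last.

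Over these settings and a further one that averaged all transcripts of a gene, 1127 of 1176 list medians stayed within 1 SD of the list mean between rats. Of the 49 that moved, 21 did so with the monocyte covariate, 7 with the B cell covariate, and 4 each without CAF rat 3, without both ends of the first component and above the median signal.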
